A study of Mus musculus with 24 samples.

Results

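Dbp, Tef, Hlf, Nfil3, Bhlhe40 and Bhlhe41, the transcription factor genes that carry the circadian clock's rhythm to its output genes, were described in 3 subregions of the mouse suprachiasmatic nucleus (SCN), after a light pulse or a sham treatment. The genes were taken by symbol from the table of log2 expression values that the authors deposited. They are 6 of 18193 named genes, are read by 11 probe sets, and all 6 were among the 13494 genes tested, those with a log2 value above 4 on at least 4 arrays. Where a gene had several probe sets, the one with the highest mean over all 24 arrays led, and the others are given beside it.

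The molecular clock is a feedback loop in which CLOCK and ARNTL activate genes through E-box elements and the PER and CRY proteins repress them. DBP, TEF and HLF are the PAR bZIP factors, which activate genes through D-box elements, and NFIL3 (E4BP4) is a bZIP repressor that binds the same elements. BHLHE40 (DEC1) and BHLHE41 (DEC2) are basic helix-loop-helix repressors that compete with CLOCK and ARNTL at E-boxes, and in rodents Bhlhe40 is known as a gene that light at night can induce in the SCN. Dbp, Tef and the DEC genes are themselves driven by E-boxes, while Nfil3 is repressed by the REV-ERB receptors through RORE elements, so that activator and repressor of the D-box peak at different times of the day.

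C57BL/6 mice, obtained at 8 weeks of age, had been in constant dim red light for at least 7 days. A pulse of light that lasted 30 min, given so as to advance the clock, was set against sham handling, and the brains were taken 3.5 h afterwards. Ventral (core), central and dorsal pieces of the SCN were cut from stained sections by laser, and their RNA was purified with a bacterial ribosomal RNA carrier, amplified, labelled and hybridised to 1 array per sample. The 3 regions and 2 treatments made 6 groups with 4 arrays each, of which 2 belonged to each amplification and labelling batch, A (replicates 1 and 2) or B (replicates 3 and 4). All groups had the same strain and the same dim red light, so the sham groups carry everything but the pulse. The labels do not say whether animals were pooled or which arrays came from 1 animal, so the p-values cover the spread between arrays, part of which may be technical. In cut tissue, fewer cells of a type and less RNA per cell cannot be told apart.

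The batches were not on 1 scale: array medians were 3.52 to 3.62 in batch A and 4.81 to 5.07 in batch B, and every comparison below has the batch as a term. Array 4 of the dorsal light group stood apart. Its 3′ and 5′ Gapdh control probe sets, which read short cDNA, differed by 5.41 where the other 11 arrays of batch B differed by 0.887 to 1.07, and its median correlation with the arrays of its batch was 0.913 where theirs was 0.977 to 0.987. On the 12 arrays of batch A the Gapdh difference was 2.02 to 3.28, above that of those 11 arrays, so the batches differed in this measure too. In batch A, array 2 of the central light group had the lowest median correlation with its batch, 0.955 against 0.976 or more. Results that rest on these arrays are given with and without them. The labelled regions carried their peptides: Vip was higher in the ventral than the dorsal SCN by 3.43 ± 0.298 (SE of a log2 difference, 8 against 8 arrays, adjusted p = 9.97e-08) and Avp, the shell's vasopressin, differed by -1.43 ± 0.249 (adjusted p = 0.00074). Grp, a core peptide, was higher in the ventral than the dorsal SCN by 1.58 and lower in the ventral than the central SCN, at -0.89 (adjusted p = 1.56e-07 and 0.000251).

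The promoters were searched for clock elements and for the cAMP response element, and the windows that hold one are printed here. They are RefSeq windows of 300 bases on build GRCm38.p6, from 250 bases before to 50 after a start site, 5′ to 3′ on the gene's strand, with the matched motif in capitals. Of the 6 windows that matched a member by symbol, 2 belong to Tef and 1 each to Dbp, Hlf, Nfil3 and Bhlhe41.
Tef, first window, chr15:81802423-81802722, plus strand: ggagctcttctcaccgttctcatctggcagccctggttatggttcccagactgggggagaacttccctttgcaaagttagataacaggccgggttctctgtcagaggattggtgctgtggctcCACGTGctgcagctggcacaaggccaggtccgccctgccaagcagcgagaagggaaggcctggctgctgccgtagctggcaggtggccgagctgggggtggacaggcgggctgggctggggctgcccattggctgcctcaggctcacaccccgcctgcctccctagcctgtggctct
Tef, second window, chr15:81811164-81811463, plus strand: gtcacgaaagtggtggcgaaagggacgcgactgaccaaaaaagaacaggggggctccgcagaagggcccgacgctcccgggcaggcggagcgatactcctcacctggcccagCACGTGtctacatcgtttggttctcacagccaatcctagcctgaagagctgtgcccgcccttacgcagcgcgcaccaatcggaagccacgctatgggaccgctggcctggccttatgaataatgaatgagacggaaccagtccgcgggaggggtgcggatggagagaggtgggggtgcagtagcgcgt
Bhlhe41, chr6:145865371-145865670, minus strand: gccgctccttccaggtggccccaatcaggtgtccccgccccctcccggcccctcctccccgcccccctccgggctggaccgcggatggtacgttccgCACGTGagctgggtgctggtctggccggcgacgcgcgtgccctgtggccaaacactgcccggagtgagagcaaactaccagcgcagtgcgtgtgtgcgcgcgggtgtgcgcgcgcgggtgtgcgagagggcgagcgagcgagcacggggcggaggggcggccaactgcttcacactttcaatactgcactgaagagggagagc
Hlf, chr11:90390868-90391167, minus strand: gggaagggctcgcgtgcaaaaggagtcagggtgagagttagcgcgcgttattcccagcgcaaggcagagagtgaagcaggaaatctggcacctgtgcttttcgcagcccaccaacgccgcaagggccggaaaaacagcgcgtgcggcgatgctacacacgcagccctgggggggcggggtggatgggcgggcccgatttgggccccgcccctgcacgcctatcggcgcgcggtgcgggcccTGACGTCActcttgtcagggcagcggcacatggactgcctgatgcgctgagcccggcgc
Nfil3, chr13:52980990-52981289, minus strand: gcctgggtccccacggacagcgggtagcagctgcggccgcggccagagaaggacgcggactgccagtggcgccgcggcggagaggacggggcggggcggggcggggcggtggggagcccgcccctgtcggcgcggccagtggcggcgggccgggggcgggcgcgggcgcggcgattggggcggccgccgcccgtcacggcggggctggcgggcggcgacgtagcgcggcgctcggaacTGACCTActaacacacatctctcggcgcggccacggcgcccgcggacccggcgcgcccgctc

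Both strands were searched for the E-box CACGTG, its variant CACGTT, the D-box as TTATGTAA, TTATGCAA or TTACGTAA, the RORE core TAGGTCA and the cAMP response element TGACGTCA, and no 2 matches overlapped. The E-box was found in both windows of Tef, with its first base at -127 and -138 from the start site, and in that of Bhlhe41, at -153. Of all 32851 windows in the table, 7.15% hold this E-box. The cAMP response element was found in the Hlf window at -9, and 1.79% of all windows hold it. The RORE core was found in the Nfil3 window at -12, on the opposite strand, and 2.61% of all windows hold it. The variant E-box (4.68% of all windows) and the D-box (1.78%) were found in 0 of the 6 windows, and the Dbp window held none of these letters. A match is a description of the sequence and not a test of binding.

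All 6 genes passed the filter, and the batch moved most of them more than region or light did. Dbp led with probe set 1438211_s_at at 10.6 ± 0.201 (log2 value, SD, n = 12 arrays) in batch A and 10.5 ± 0.397 in batch B. Tef stood at 7.63 ± 0.431 and 10.1 ± 0.466, and Hlf at 7.95 ± 0.282 and 10.2 ± 0.145. Of the repressors, Bhlhe40 stood at 5.81 ± 0.223 and 8.14 ± 0.331, Bhlhe41 at 4.47 ± 0.483 and 6.67 ± 0.278, and Nfil3 at 4.31 ± 0.259 and 5.00 ± 0.288. Nfil3 and Bhlhe41 were near the filter level of 4 in batch A, where each exceeded it on 10 of 12 arrays. In batch B the Nfil3 mean lay within the range of the array medians, 4.81 to 5.07. Among all genes Nfil3 stood at percentile 50.4 in batch A and 40.6 in batch B. Passing the filter therefore does not show that Nfil3 gave signal. The batch B mean was above the batch A mean by 0.69 (Nfil3) to 2.50 (Tef) in 5 of the 6 leading probe sets, whereas that of Dbp differed by -0.14. The second probe set of Dbp, 1418174_at, differed by 2.34. Values of different probe sets are not on 1 scale and were not set against each other.

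**Figure D1:**
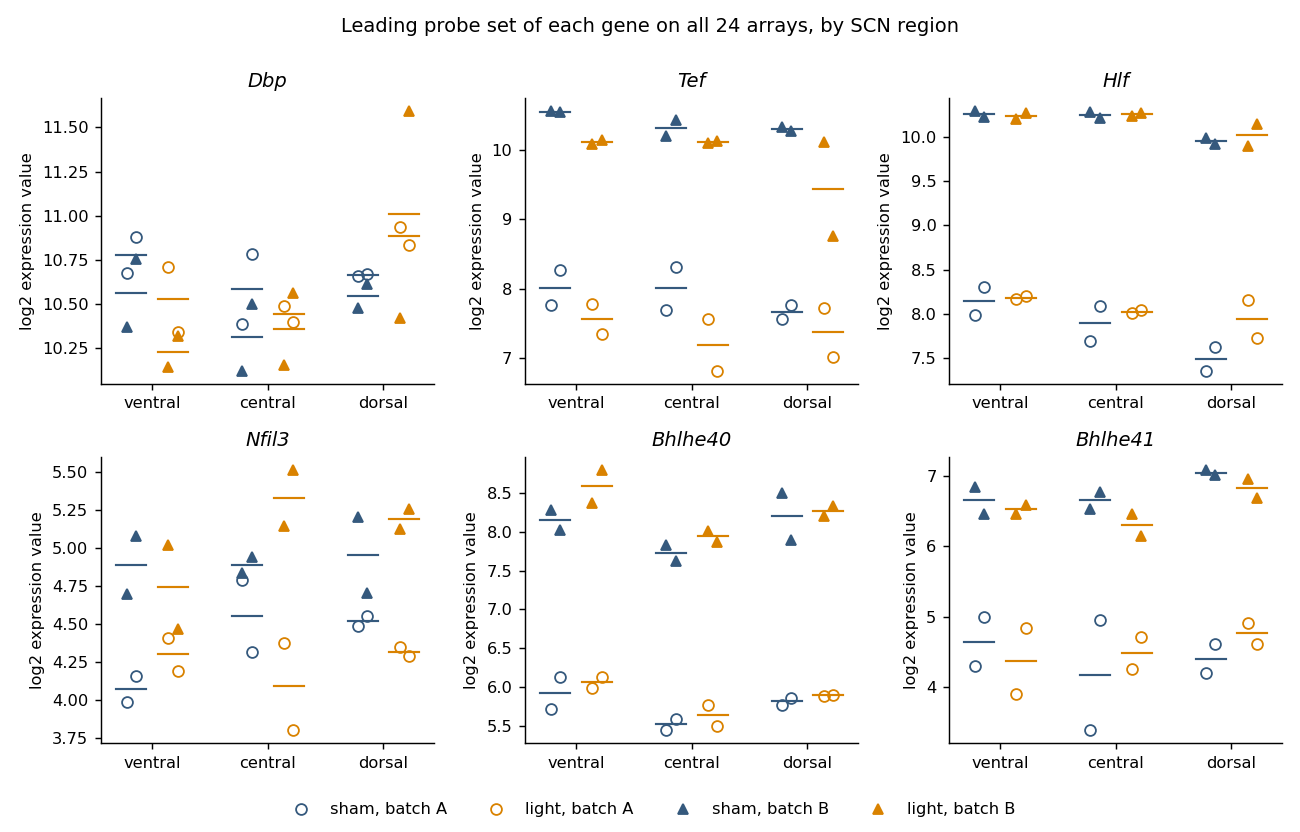
The leading probe set of each gene on every array (log2 expression value), by SCN region, with sham in blue and light in orange, open circles for batch A, triangles for batch B and a line at the mean of each pair of arrays. Tef triangles of the 6 light arrays, 8.76 to 10.1, all lie below those of the 6 sham arrays, 10.2 to 10.6, and Bhlhe40 is lowest in the central SCN in both batches.

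The pulse changed 0 of the 6 genes in any region at 3.5 h. The test was limma's moderated test of 4 light against 4 sham arrays with the batch as a term and Benjamini-Hochberg adjustment over all genes tested, and adjusted p under 0.05 counted as changed. In the ventral SCN 0.719% of all genes tested changed, in the central SCN 0.385% and in the dorsal SCN 0.178%. At these shares, 0 calls among 6 genes is not a result about them. With the regions averaged, on 8 composite values that each hold the 3 regions of 1 treatment and replicate number, 0 members changed against 0.408% of all genes. The light effect differed between regions for 0 members and for 0.00741% of all genes, with adjusted p = 0.9997 for each member in limma's moderated F test and 0 members at an unadjusted p under 0.05, against 2.05% of all genes. Over the 6 genes the median difference was -0.09 in the ventral, -0.01 in the central and 0.07 in the dorsal SCN, beside medians of -0.03, -0.08 and -0.03 over all genes tested. At an unadjusted p under 0.05, 0 members passed in the ventral and central SCN, where 6.56% and 8.06% of all genes did, and 1, Tef, in the dorsal SCN and in the average, where 10.1% and 9.52% did.

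Tef, the PAR bZIP factor whose light values stood farthest from sham, had a lower mean on light than on sham arrays in each region. In the ventral SCN it read 7.77, 7.35, 10.09 and 10.14 on light arrays 1 to 4 and 7.76, 8.27, 10.56 and 10.54 on sham arrays 1 to 4. In the central SCN the light arrays read 7.56, 6.82, 10.10 and 10.13 and the sham arrays 7.70, 8.31, 10.21 and 10.43. In the dorsal SCN the light arrays read 7.73, 7.02, 10.11 and 8.76 and the sham arrays 7.56, 7.77, 10.33 and 10.27. The light mean was under the sham mean in all 6 comparisons within a region and batch, as it was for 7.72% of all genes tested. In batch B the 6 light and 6 sham arrays did not overlap, as for 0.615% of all genes tested with light below sham, while in batch A they overlapped. Where arrays of other genes or of marker levels are said below to separate, that is a description. The share of all genes that separate likewise was not counted.

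The differences of Tef, light minus sham, were -0.44 ± 0.251 in the ventral (adjusted p = 0.888), -0.51 ± 0.251 in the central (adjusted p = 0.637) and -0.58 ± 0.251 in the dorsal SCN (adjusted p = 0.474), and none passed the test. Averaged over the regions the difference was -0.51 ± 0.177 (adjusted p = 0.384), with a 95% interval from -0.90 to -0.12. It was -0.52 in batch A and -0.50 in batch B. Within batch A it lay in the arrays numbered 2, at 6.82 to 7.35 on light and 7.77 to 8.31 on sham arrays. Those numbered 1 read 7.56 to 7.77 on light and 7.56 to 7.76 on sham arrays. The average passed only when all 24 arrays entered as separate samples (adjusted p = 0.0488), a fit in which regions that may come from 1 animal count as independent. Part of its size came from the arrays that stood apart. The dorsal difference was -0.26 without dorsal light array 4 (adjusted p = 0.881), the central one was -0.32 (adjusted p = 0.585) without that array and central light array 2, and the average was -0.25 (adjusted p = 0.644) without the composites that hold those 2 arrays. The second probe set, 1438033_at, gave -0.65, -0.46 and -0.69 in the ventral, central and dorsal SCN. The third, 1450184_s_at, exceeded 4 on 0 of 24 arrays and gave -0.17, 0.20 and -0.26.

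Dbp, the PAR bZIP activator with the strongest known rhythm of the 3, had light values to both sides of sham. In the ventral SCN the light arrays read 10.71, 10.34, 10.14 and 10.32 and the sham arrays 10.67, 10.88, 10.37 and 10.76, a difference of -0.29 ± 0.196 (adjusted p = 0.999). In batch B the ventral light arrays lay below the ventral sham arrays, and in batch A they overlapped. In the central SCN the light arrays read 10.49, 10.40, 10.15 and 10.56 and the sham arrays 10.39, 10.78, 10.12 and 10.50, a difference of -0.05 ± 0.196 (adjusted p = 0.993). In the dorsal SCN the light arrays read 10.94, 10.84, 10.42 and 11.60 and the sham arrays 10.66, 10.67, 10.47 and 10.61, a difference of 0.34 ± 0.196 (adjusted p = 0.521), with light above sham in batch A and overlap in batch B. Averaged over the regions the difference was 0.00 ± 0.161, with a 95% interval from -0.35 to 0.36.

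The dorsal value of Dbp rested on 1 array and on the choice of probe set. Dorsal light array 4 held the highest value of all 24 on 1438211_s_at, 11.60 where the rest of batch B read 10.12 to 10.76, and the lowest of batch B on 1418174_at, 7.91 where the rest read 8.45 to 8.94. Without that array the dorsal difference was 0.09 (adjusted p = 0.959), and on 1418174_at with all arrays it was -0.06. On batch-centred values, the log2 value minus the mean of its batch, the probe sets of Dbp correlated at 0.10 over 24 arrays and at 0.75 over the 23 without it. On the same array the leading probe set of Tef read 8.76 against 10.09 or more, 1438033_at of Tef 5.82 against 8.32 or more, and 1434735_at of Hlf 7.64 against 8.30 or more. The leading probe sets of Hlf, Nfil3, Bhlhe40 and Bhlhe41 read within the range of the other 11 arrays there. The part of the array's short cDNA in these values was not tested.

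**Figure D2:**
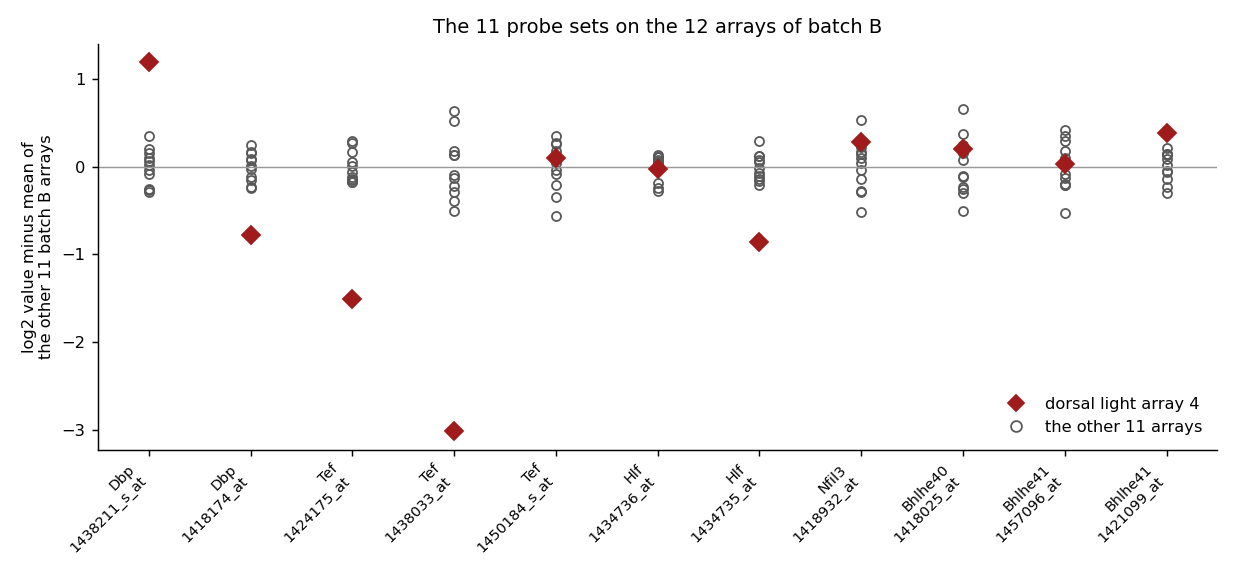
Each of the 11 probe sets on the 12 arrays of batch B, as log2 value minus the mean of the 11 arrays other than dorsal light array 4, which is the red diamond. It lies 1.19 above that mean on the leading probe set of Dbp, and at -0.78 on the other one, at -1.51 and -3.02 on probe sets of Tef and at -0.86 on 1434735_at of Hlf.

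Hlf, the third PAR bZIP factor, differed by 0.01 ± 0.140 in the ventral and 0.07 ± 0.140 in the central SCN (adjusted p = 1.00 and 0.973). In the dorsal SCN the light arrays read 8.16, 7.72, 9.89 and 10.14 and the sham arrays 7.36, 7.63, 9.99 and 9.92, a difference of 0.25 ± 0.140 (adjusted p = 0.513). The dorsal light arrays of batch A were above both sham arrays of that batch, and in batch B they overlapped. The second probe set, 1434735_at, gave -0.25 in the dorsal SCN, so the sign there depends on the probe set.

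Nfil3, the repressor at the same D-box elements, gave differences of 0.04 ± 0.202 in the ventral, -0.01 ± 0.202 in the central and 0.02 ± 0.202 in the dorsal SCN. The intervals reached from -0.38 to 0.46, from -0.43 to 0.41 and from -0.40 to 0.44, so changes within those bounds were not detectable with 4 arrays a group. The batches went apart in the central SCN, at -0.46 in batch A and 0.44 in batch B.

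Bhlhe40, the DEC gene known to respond to light, was above sham in the mean of every region and batch, and the differences did not pass the test. The share of all genes with that pattern was not counted. The reverse, light below sham in all 6 comparisons, was found for 7.72% of all genes tested. In the ventral SCN the light arrays read 5.99, 6.14, 8.37 and 8.79 and the sham arrays 5.72, 6.14, 8.28 and 8.02. The difference was 0.28 ± 0.150 (adjusted p = 0.852), with a 95% interval from -0.03 to 0.60, and the light arrays of batch B were above the sham arrays of that batch. The central and dorsal differences were 0.17 ± 0.150 and 0.07 ± 0.150 (adjusted p = 0.887 and 0.849), and the average over the regions was 0.18 ± 0.137 (adjusted p = 0.780).

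Bhlhe41, its paralogue, gave -0.20 ± 0.272 in the ventral, -0.02 ± 0.272 in the central and 0.07 ± 0.272 in the dorsal SCN, with intervals as wide as -0.76 to 0.37 in the ventral SCN. In the dorsal SCN the batches went apart, at 0.36 in batch A and -0.22 in batch B. Its second probe set, 1421099_at, exceeded 4 on 1 of 24 arrays and correlated with the first at -0.64 on batch-centred values, and it carries little information here.

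**Figure D3:**
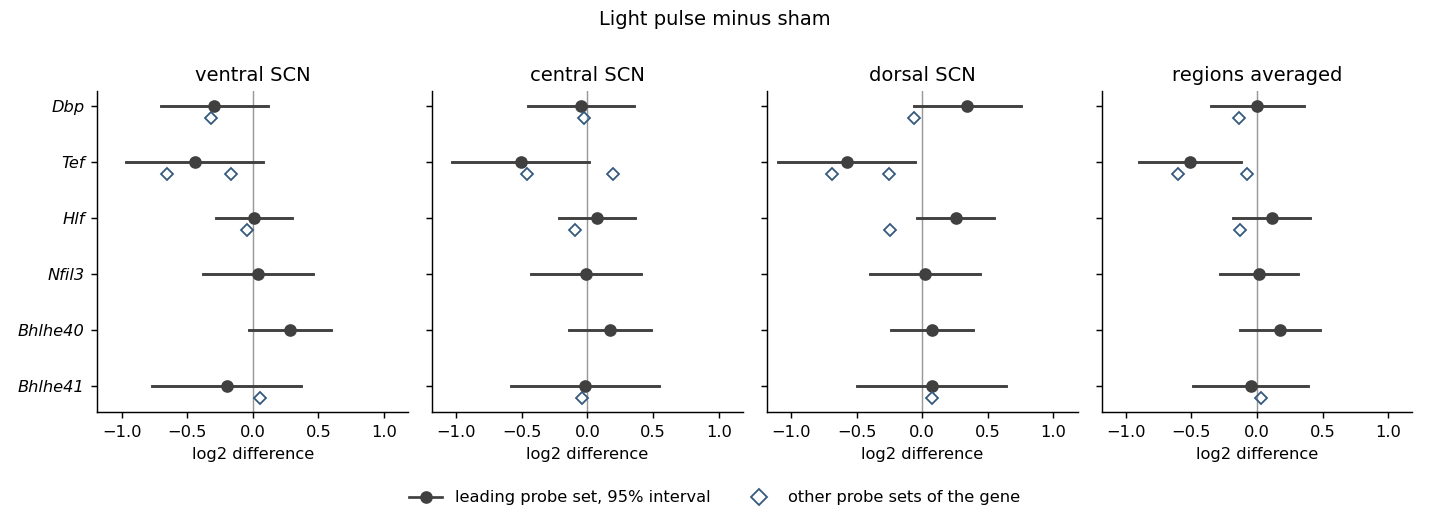
Light minus sham (log2 difference) for each gene in the ventral, central and dorsal SCN and averaged over them, with 95% intervals for the leading probe set (filled circles) and open diamonds for the gene's other probe sets, drawn without interval. The circles of Tef lie between -0.44 and -0.58 and those of Bhlhe40 between 0.07 and 0.28, and the 2 Dbp probe sets part in the dorsal SCN, at 0.34 and -0.06.

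The genes around these factors held a few members that did respond on the same arrays. Of 12 tested clock loop partners, 1 rose in the ventral and the central SCN and 0 in the dorsal SCN. It was Per2, the repressor of the feedback loop, with 2.19 ± 0.269 in the ventral and 1.48 ± 0.269 in the central SCN (adjusted p = 8.31e-05 and 0.00949), and a dorsal difference of 1.27 (adjusted p = 0.0539). The median of this list was 0.10 in the ventral SCN beside -0.03 over all genes. Per2 also stands in the list of D-box genes, of which the other 9 tested did not pass in any region. The D-box gene with the next smallest p in the ventral SCN was Cry1, a repressor of the loop, at 0.60 (adjusted p = 0.0868), and in the central and dorsal SCN it was Rorb, an orphan receptor that binds RORE elements, at 0.77 and 0.76 (adjusted p = 0.0551 and 0.0904).

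Of 4 tested REV-ERB and ROR receptors, which bind RORE elements, 0 changed. The smallest p in the ventral SCN belonged to Rora and Rorb, at 0.94 and 0.52 (adjusted p = 0.145 and 0.339), and in the central SCN Rora gave 0.96 (adjusted p = 0.157). Of 9 tested E-box output genes, 1 rose in the ventral and the central SCN, Prok2, a secreted SCN signal, with 2.61 ± 0.557 and 2.62 ± 0.557 (adjusted p = 0.0235 and 0.0345). Its dorsal difference was 2.08 and did not pass. Of 10 tested bZIP relatives of the D-box factors, 1 rose in the ventral and the central SCN, Crem, a cAMP-responsive regulator, with 2.43 ± 0.309 and 1.81 ± 0.309 (adjusted p = 0.000127 and 0.00525). The dorsal difference of Crem was 1.30 and did not pass either. Of 10 tested relatives of the DEC factors, the HES, HEY and ID genes, 0 changed with light. The smallest p in the ventral SCN belonged to Heyl and Hes5, Notch-pathway repressors, at -0.79 and -0.89 (adjusted p = 0.369 and 0.563). Other probe sets of the 3 rising genes were weaker, from -0.05 to 0.21 for Per2, 0.18 and 0.32 for Prok2 and 0.24 to 1.53 for Crem in the ventral SCN. Prok2 and Crem had leading sham means under 4 in batch A, at 3.61 and 3.87. The SCN marker level, the mean batch-centred value of 11 genes with Prok2 among them, was higher on light than on sham arrays in every region, without overlap. It was 0.06 to 0.30 against -0.20 to 0.03 in the ventral, 0.31 to 0.52 against -0.21 to 0.11 in the central and -0.04 to 0.13 against -0.75 to -0.24 in the dorsal SCN, and its part in the light differences was not tested. The median light difference of these 11 genes was -0.001 in the ventral, 0.17 in the central and 0.46 in the dorsal SCN. Over all genes it was -0.03, -0.08 and -0.03. In the ventral SCN the median marker thus did not rise, and the level there includes the 2.61 of Prok2.

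Between regions, with both treatments together, 2 of the 6 genes differed. Bhlhe40 was higher in the ventral than the central SCN, and Hlf was higher in the ventral than the dorsal SCN. Each comparison set 8 against 8 arrays in the same fit. One member of 6 passed between the ventral and dorsal SCN where 4.61% of all genes did, 1 of 6 between the ventral and central SCN where 5.2% did, and 0 of 6 between the central and dorsal SCN where 7.11% did. At an unadjusted p under 0.05 in the last comparison, 3 members passed against 19.3% of all genes.

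Bhlhe40 ran from ventral over dorsal to central. In batch A it read 5.72 to 6.14 on ventral, 5.77 to 5.91 on dorsal and 5.45 to 5.78 on central arrays. In batch B it read 8.02 to 8.79 on ventral, 7.89 to 8.50 on dorsal and 7.62 to 8.01 on central arrays, so that in batch B every ventral array was above every central one. The ventral SCN was 1.39-fold above the central SCN (0.48 ± 0.106, adjusted p = 0.00738), by 0.41 in batch A and 0.54 in batch B. The central minus dorsal difference was -0.34 ± 0.106 (adjusted p = 0.0566) and did not pass. Of the fits that left out 1 array, only 2 passed, those without ventral light array 4 (adjusted p = 0.0499) or dorsal sham array 4 (adjusted p = 0.0286). Without ventral light array 4 the difference itself stayed at -0.34. Without dorsal sham array 3 it was -0.28 (adjusted p = 0.150). Ventral and dorsal, the other neighbours in the order, differed by 0.14 ± 0.106 (adjusted p = 0.588), so neither pair of neighbours passed. The ventral minus central call held without each array in turn (adjusted p = 0.00332 to 0.0234). On the sham arrays alone the difference was 0.42 (adjusted p = 0.302), and under quantile normalization of all arrays it was 0.39 (adjusted p = 0.0585).

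Markers of another cell type ran in the same order. All 6 tested oligodendrocyte markers were higher in the ventral than the central SCN, with a median of 2.59, and their mean batch-centred level was 0.85 to 1.52 on ventral, -0.28 to 0.39 on dorsal and -1.82 to -0.84 on central arrays. Of 6 astrocyte markers, 4 were higher in the ventral than the central SCN, with a median of 0.59. In the central SCN of batch A, Mag and Mog had mean log2 values of 3.15 and 3.38, under the filter level of 4, and the other 4 oligodendrocyte markers read 6.07 or more. Their part in the difference of Bhlhe40 was not tested.

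By its means over both batches, Hlf ran from ventral over central to dorsal. In batch A it read 7.98 to 8.30 on ventral, 7.70 to 8.09 on central and 7.36 to 8.16 on dorsal arrays. In batch B it read 10.20 to 10.30 on ventral, 10.22 to 10.28 on central and 9.89 to 10.14 on dorsal arrays. In batch B all dorsal arrays were thus below all others, and in batch A the regions overlapped. For Hlf as for Bhlhe40, the share of all genes whose regions separate in this way was not counted. The ventral SCN was 1.28-fold above the dorsal SCN (0.35 ± 0.0989, adjusted p = 0.0394), by 0.45 in batch A and 0.26 in batch B. The second probe set, 1434735_at, gave 0.31 and did not pass (adjusted p = 0.179). The central minus dorsal difference was 0.25 ± 0.0989 (adjusted p = 0.140), and ventral and central did not differ beyond their spread, at 0.10 ± 0.0989 (adjusted p = 0.863). The ventral minus central difference was 0.20 in batch A and -0.003 in batch B, so ventral led central in batch A only.

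The call of Hlf was close to the threshold. It was lost in 13 of the 24 fits that left out 1 array, with differences of 0.31 to 0.38 and adjusted p = 0.0501 to 0.102. Those arrays were all 4 ventral light, central light 1 and 4, dorsal light 2 and 3, ventral sham 2, 3 and 4, and dorsal sham 1 and 2. Without dorsal light array 4 the difference was 0.36 (adjusted p = 0.0276). On the sham arrays alone it was 0.48 (adjusted p = 0.113), and with each array centred on its median 0.34 (adjusted p = 0.113). Beside it, 5 of 6 oligodendrocyte and 3 of 6 astrocyte markers were higher in the ventral than the dorsal SCN, with medians of 1.07 and 0.52. Of 5 markers of neighbouring hypothalamic neurons 2 were lower, with a median of -0.51 over the list, Sst at -5.26 and Oxt at -2.03 (adjusted p = 4.02e-08 and 0.00853). Of 3 ependymal markers 2 were lower, with a median of -1.01, and of 6 general neuron markers 2 were lower, with a median of -0.47. Between the central and dorsal SCN, where Hlf differed by 0.25, 5 of 6 oligodendrocyte markers were lower, with a median of -1.42. Of 6 astrocyte markers 0 passed there, with a median of -0.16. The part of these markers in the differences of Hlf was not tested.

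The other 4 genes did not pass between any regions. Tef gave 0.37 ± 0.178 between the ventral and dorsal SCN (adjusted p = 0.335), and 0.21 without dorsal light array 4. Dbp was highest in the dorsal SCN by its means, with a central minus dorsal difference of -0.35 ± 0.138 (adjusted p = 0.145), and -0.22 without that array. On the sham arrays alone its ventral minus dorsal difference was 0.07, so the dorsal SCN did not lead there. Bhlhe41 gave -0.36 ± 0.193 between the central and dorsal SCN (adjusted p = 0.324), and on it as on Dbp the order of the means was dorsal, ventral, central. Nfil3 gave -0.25 ± 0.143 between the ventral and dorsal SCN (adjusted p = 0.445), with ventral the lowest. For these 4 genes no pair of neighbouring regions passed the test.

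**Figure D4:**
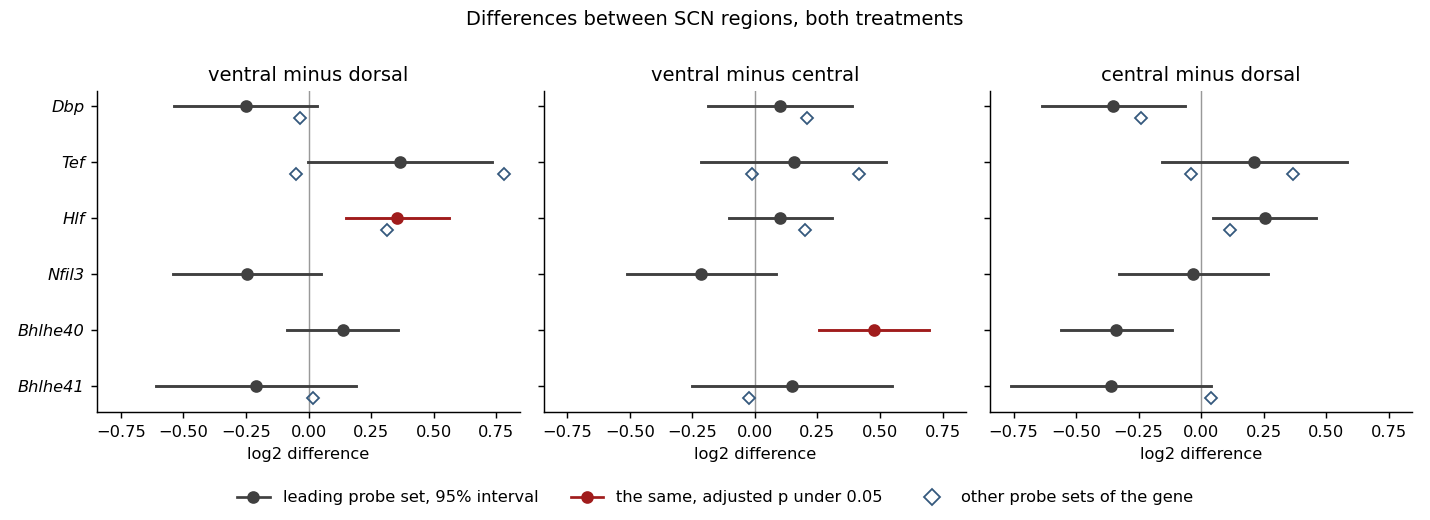
Differences between SCN regions (log2 difference, 8 against 8 arrays, both treatments) for each gene, with 95% intervals for the leading probe set as filled circles and the gene's other probe sets as open diamonds. The 2 red circles, Hlf at 0.35 in ventral minus dorsal and Bhlhe40 at 0.48 in ventral minus central, had adjusted p under 0.05.

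Several genes related to these factors also differed between regions. Of the 10 tested HES, HEY and ID genes, 4 were higher and 1 lower in the ventral than the dorsal SCN, with a median of 0.37 beside 0.01 over all genes. The higher ones were Id2 (0.62, adjusted p = 0.00445), Hey2 (0.63, adjusted p = 0.0132), Id3 (0.98, adjusted p = 0.0218) and Id4 (0.45, adjusted p = 0.0224), which code for inhibitors of helix-loop-helix factors and, for Hey2, a repressor downstream of Notch. The lower one was Heyl, a relative of Hey2, at -0.71 (adjusted p = 0.0308). Id2 and Hey2 were also higher in the ventral than the central SCN (0.69 and 0.59, adjusted p = 0.00129 and 0.0195). Oligodendrocyte and astrocyte markers were by their medians also higher in the ventral SCN in both comparisons, opposite to Heyl. Of 6 microglia markers 0 passed in either, with medians of -0.11 (ventral minus dorsal) and 0.43 (ventral minus central). The part of these markers in the differences was not tested.

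Of 12 clock loop partners, 2 were lower in the ventral than the dorsal SCN, Npas2 at -0.48 and Arntl2 at -0.81 (adjusted p = 0.0430 and 0.0477), the paralogues of Clock and Arntl. Rorb was lower in the ventral and the central than the dorsal SCN, at -0.80 and -0.66 (adjusted p = 0.000197 and 0.0013). Among D-box genes Pdxk, which makes the active form of vitamin B6, was lower in the central than the dorsal SCN, at -0.59 (adjusted p = 0.0308). Among E-box output genes Usp2, a deubiquitinating enzyme, was higher in the ventral than the central SCN and lower in the central than the dorsal SCN, at 0.56 and -0.96 (adjusted p = 0.0245 and 0.000157). Usp2, like Bhlhe40, thus had its lowest mean in the central SCN. Among bZIP relatives Cebpa, a CCAAT-binding activator, was higher in the ventral and the central than the dorsal SCN, at 1.76 and 0.96 (adjusted p = 9.20e-05 and 0.0207).

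The genes whose batch-centred values over the 24 arrays were most like those of each member were named by Pearson correlation, as a description in which arrays share region, treatment and RNA quality. For Dbp the nearest was Sphk2, a sphingosine kinase gene, at r = 0.952, and it stayed the nearest at 0.943 over the 23 arrays without dorsal light array 4. Sphk2 is Dbp's neighbour: in the RefSeq annotation of GRCm38.p6 the genes lie on opposite strands and share 741 bases. The correlation was between 1438211_s_at of Dbp, a probe set whose suffix marks possible matches to several transcripts, and 1426230_at of Sphk2. It was 0.941 in batch A and 0.968 in batch B. The other Dbp probe set correlated with 1426230_at at 0.265 over 24 arrays and at 0.768 without dorsal light array 4. The second Sphk2 probe set, 1417431_a_at, had a mean of 4.03 and correlated with the leading probe set of Dbp at -0.08. Whether signal from the shared stretch enters the leading Dbp value was not tested, and Dbp's level is uncertain to that extent. Sphk2 itself did not pass in any comparison, at -0.29, 0.00 and 0.29 for light in the ventral, central and dorsal SCN.

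**Figure D5:**
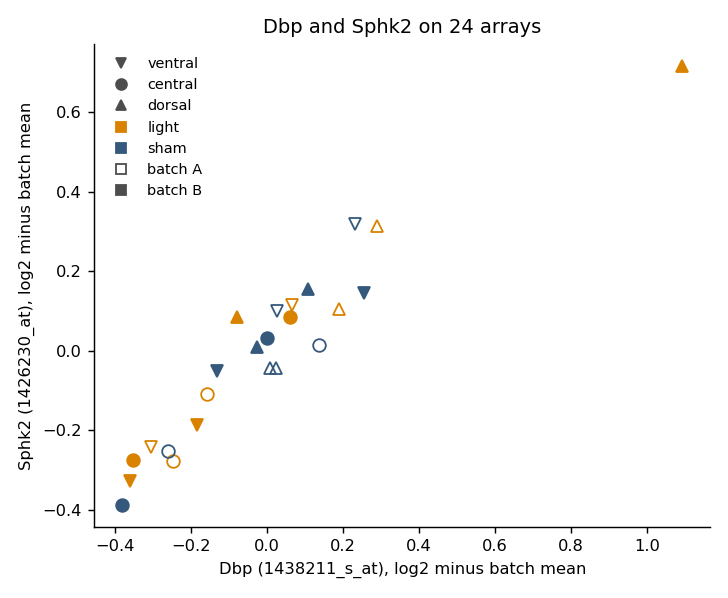
Batch-centred log2 values of the leading probe sets of Dbp (x) and Sphk2 (y) on 24 arrays, by region (shape), treatment (colour) and batch (open for A, filled for B). The point at the upper right is dorsal light array 4, and the correlation is 0.952 with it and 0.943 without it.

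For Tef the 3 nearest genes were Slc24a2, Fbxo21 and Crebrf, at 0.944, 0.935 and 0.934, and at 0.896, 0.878 and 0.886 without dorsal light array 4. For Hlf they were Slc35d1, Pde4b and Nkain2, at 0.778, 0.768 and 0.757, and Stk24, Shtn1 and Nkain2 over the 23 arrays without it. For Bhlhe40 they were Epx, Fam20a and Bag3, at 0.784, 0.781 and 0.769, and Nhsl1, Zfp36l2 and Hey1 over the 23 arrays. For Bhlhe41 they were Tceanc, Btg2 and Dtx3l, at 0.689, 0.682 and 0.644, and Setd5, Rps3a1 and Tgoln1 over the 23 arrays. For Nfil3 they were Xrcc6, Eno3 and 4933427D14Rik, at 0.747, 0.683 and 0.682, and Mrps10, Shisa7 and Xrcc6 over the 23 arrays. For Tef they became Abcg1, Klf7 and Slc24a2, and for Dbp 4930430F08Rik and Slitrk4 followed Sphk2. Between different members the correlation ran from -0.45, for Nfil3 and Bhlhe41, to 0.29, for Bhlhe40 and Bhlhe41. Dbp and Tef stood at -0.32 over 24 arrays and at 0.45 over the 23 without dorsal light array 4, on which they lay at opposite ends.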

How the data were processed

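Gene expression was measured on 24 arrays. The values are log2 expression values that the authors deposited, 1 for each of 45101 probe sets and array. Per the submitters' processing notes, GCRMA 2.32.0, MAS5 and R 3.0.2 were used, with no roles named and no word on whether batches were normalized together, so batch enters each comparison. Of the probe sets, 34945 carried 1 gene symbol in the platform annotation, 932 carried several and named no gene, and 64 were controls. For each gene the probe set with the highest mean led.

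Groups came from the labels. The test was limma's moderated one (limma 3.58.1, R 4.3.3, two-sided, Benjamini-Hochberg adjustment over 13494 genes, threshold 0.05), in a fit of 6 group means and batch with 17 residual degrees of freedom. The average light effect used 8 composites with batch. Errors after ± are standard errors unless SD is stated, and precision is limited by the number of arrays. The fit was tested on simulated data. Alternatives were batch, scaling, filter, weights, probe set, block and leaving out each array. The named genes are the 6 members, their 3 nearest genes and, of each pathway list, the called members and otherwise those with the smallest p, of which Cry1 and Rorb were named beside Per2 after their values were seen. Members, lists and tests were chosen with earlier results of these data known. Some genes of the lists are not reported here.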

Additional observations from a re-analysis of the deposited data

Results flagged for a closer look

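In 36 groups of 4 arrays (6 genes by 6 groups, batch-centred log2 values of the leading probe sets), 2 held an array whose gap to the nearest of the others, over the group's range, exceeded Dixon's critical value for groups of that size. Chance gives about 1 in 20 such groups. Tef in the central light group had its lowest value on array 2, at -0.81, the array with the lowest median correlation in batch A. Nfil3 in the dorsal sham group had its lowest value on array 4, at -0.29.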

How the results depend on the processing

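With 4 arrays a group, 0 members passed for light in the ventral, central or dorsal SCN, or for the interaction, under any alternative run. For light averaged over the regions, 1 member, Tef, passed when all 24 arrays entered the fit. Between the ventral and dorsal SCN the count of 1 became 0 without a batch term, in batch A alone, in batch B alone, with arrays centred on their medians, under quantile normalization and on sham arrays alone, and was 0 to 1 without 1 array. Between the ventral and central SCN it became 0 without a batch term, in either batch alone, under quantile normalization and on sham arrays alone. Between the central and dorsal SCN the count of 0 became 1 with a replicate block in place of the batch (Bhlhe40, adjusted p = 0.0446), 2 with array weights, 1 with the mean over a gene's probe sets and 1 with a random block by treatment and number (consensus correlation 0.257), and was 0 to 1 without 1 array. The replicate block changed no other call. The labels do not say what its numbers share. Of 60 correlations of same-numbered deviations 37 exceeded 0.1, from -0.21 to 0.56. They include pairs of a light and a sham array, which cannot share an animal. The 60 values therefore do not settle whether regions of 1 number share animals. The numbers were not taken as pairs in the region comparisons because the labels name no shared animal. Of 1565 alternative values of 42 member results, 110 changed sign, 9 of them in differences beyond 1 SE, and none of a called difference. These counts hold repeats. For the average light effect, leaving out any array dropped its whole composite, so the arrays of 1 composite gave the same value. Over all genes, counts ran from 0 to 576 (ventral, 97 in the fit reported), 0 to 204 (central, 52), 0 to 353 (dorsal, 24), 0 to 549 (average, 55), 4 to 1374 (ventral minus dorsal, 622), 9 to 1390 (ventral minus central, 702), 7 to 1762 (central minus dorsal, 959) and 0 to 2 (interaction, 1), lowest without a batch term.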
